A study of Mus musculus with 34 samples.

Results

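The Wnt system of the mouse kidney was examined through 59 genes among the 23509 counted in each library. The set was defined by symbol: every *Wnt*, *Fzd*, *Sfrp*, *Dkk* and *Rspo* gene and *Lgr4*, *Lgr5* and *Lgr6*, together with 15 symbols named one by one, from the coreceptor *Lrp5* to the ubiquitin ligase *Rnf43*. By role it held 19 Wnt ligands, 10 Frizzled receptors, 2 coreceptors, 4 secreted Frizzled-related proteins, 4 Dickkopf genes, 2 other secreted inhibitors, 4 R-spondins, 3 R-spondin receptors, 2 receptor-degrading ligases, 5 intracellular regulators and 4 TCF/LEF factors. Polyadenylated kidney RNA was sequenced in 34 C57BL6 mice, 1 library per mouse, at postnatal day (P) 28. *Pkd2*-KO mice (*Pkhd1*/cre;*Pkd2* F/F, spelled Pdk2KO in the sample labels) received RGLS4326 at 20 mg per kg (n = 11) or phosphate-buffered saline (PBS, n = 11) under the skin on P10, P11, P12 and P19. Untreated, non-transgenic mice of the same strain and age (UNT, n = 12) were the normal controls, so the 2 *Pkd2*-KO groups share the deletion and the injections, and UNT mice had neither. Cre is driven here by the promoter of *Pkhd1*, which is active in renal tubules, chiefly the collecting ducts, so that only part of the kidney's cells lose *Pkd2*. RGLS4326 is a short, chemically modified oligonucleotide that pairs with the seed of the microRNA miR-17. PBS vs UNT is called the disease contrast and RGLS4326 vs PBS the treatment contrast.

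Wnt ligands are secreted lipid-modified glycoproteins that bind a Frizzled receptor. With the coreceptor *Lrp5* or *Lrp6* this keeps β-catenin (*Ctnnb1*) from being degraded, and β-catenin then acts with TCF/LEF factors on target genes. Frizzled-related proteins, *Wif1*, the Dickkopf proteins and *Notum* hold the signal back outside the cell. R-spondins, through their *Lgr* receptors, remove the ligases *Znrf3* and *Rnf43* that would otherwise clear Frizzled from the surface. *Axin2*, *Nkd1*, *Notum*, *Rnf43*, *Znrf3*, *Lgr5* and *Lef1* are themselves widely used as transcriptional readouts of β-catenin signaling. In kidney development *Wnt9b* from the ureteric bud and *Wnt4* in the mesenchyme drive nephron formation, *Wnt7b* patterns the medulla and *Wnt11* acts at the bud tips.

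The miRNA that RGLS4326 pairs with and the 3 longest seed matches among the members are shown, since the drug pairs with this seed. The mature miR-17 sequence was taken from RefSeq (GRCm38.p6, chr14:115043684-115043706, plus strand), with the seed, bases 2 to 8, in capitals. The sites lie in the 3′UTR of *Wnt9b* (chr11:103730261-103730268, minus strand), *Fzd3* (chr14:65192537-65192544, minus strand) and *Sfrp4* (chr13:19631537-19631544, plus strand) on GRCm38, each written 5′ to 3′ with the site in capitals, 7 bases complementary to the seed followed by an A (together an 8mer).
miR-17-5p: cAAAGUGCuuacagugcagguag
Wnt9b: gagcaagggaaGCACTTTAggcttgggtgg
Fzd3: tgtttttcttaGCACTTTAactgtgagtgt
Sfrp4: cagtgttctggGCACTTTAgtgggtcacag
An 8mer or a shorter site, the 7 bases alone (7mer-m8) or the complement of bases 2 to 7 followed by an A (7mer-A1), stood in the longest annotated 3′UTR of 15 of the 52 members tested below (28.8%) and of 3011 of 14193 tested genes (21.2%), and an 8mer in 3 members (5.77%) and 604 genes (4.26%). In the treatment contrast, 2 of the 15 members with a match rose and 4 fell, with a median log2 fold change of 0.00, and 5 of the 37 without a match rose and 13 fell, with a median of -0.13, while 15.3% of all tested genes were called higher and 18.5% lower. Of the 6 calls among members with a match, 5 were lost without libraries PBS 2 and PBS 11, which stood apart as described below (*Wnt9b*, *Fzd2*, *Fzd8*, *Sfrp1* and *Sfrp4*). Of the 3 members with an 8mer, *Fzd3* was called higher and *Wnt9b* and *Sfrp4* lower, and without these libraries the adjusted p was 0.0771 for *Wnt9b* and 0.0823 for *Sfrp4*. A match is a description of the sequence, and whether any of these mRNAs is bound by miR-17 was not measured here.

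Each library held between 17603122 and 54981992 reads in genes, and levels are given as CPM, counts scaled to library size with TMM factors. Of the 59 members, 52 passed the filter on low counts. The other 7 were *Wnt1*, *Wnt3*, *Wnt3a*, *Wnt8a*, *Dkk4*, *Rspo2* and *Rspo4*. *Dkk4* had 0 reads in all 34 libraries, which allows up to 2.59e-07% of the reads in genes for a floor of 3 counts, counting error only, and the other 6 had at most 5 reads in any library and were not tested. The highest of these was in *Wnt1*, which had 19 reads in all PBS, 9 in all RGLS4326 and 0 in all UNT libraries. Libraries PBS 2 and PBS 11 stood apart. The summed level of 5 adrenal cortex markers was 539 and 837 CPM in them and between 1.94 and 27.3 CPM in the other 32 libraries, and *Star*, the cholesterol carrier of steroid-making cells, reached 302 and 450 CPM. *Wnt4* was also highest in these libraries, at 81.3 and 92.7 CPM, so the treatment calls that are lost without them are named below, beside each gene. Cell type markers moved with the groups as well. All 8 collecting duct principal cell markers rose in the disease contrast and 5 of 8 fell in the treatment contrast, with summed levels of 723 to 1121 CPM in UNT, 1254 to 2929 CPM in PBS and 689 to 2606 CPM in RGLS4326 libraries. Markers of fibroblasts and pericytes summed to 774 to 1745, 3971 to 7936 and 4963 to 7244 CPM, and those of macrophages to 101 to 166, 806 to 2512 and 750 to 1534 CPM, in the same order of groups. Proximal tubule markers summed to 24130 to 34750, 1082 to 5177 and 2727 to 5544 CPM. All 6 urothelium markers rose in the disease contrast and 5 of 6 fell in the treatment contrast (median log2 fold change -0.64), with sums of 35.9 to 56.4, 103 to 220 and 63.2 to 138 CPM. None of the principal cell, intercalated cell, fibroblast and pericyte, macrophage, proximal tubule or urothelium markers was at 0 in any library. *Adgre1* of the macrophage list had no row under that symbol. Their part in the results below was not tested, and in whole kidneys fewer cells of a type and less RNA per cell cannot be told apart.

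To ask how the Wnt system differs between cystic and normal kidneys, each tested gene was compared between PBS and UNT libraries with the quasi-likelihood test of edgeR, in a single fit of all 34 libraries over 15644 genes. Adjusted p is the Benjamini-Hochberg value over all these genes, and a gene was called at an adjusted p under 0.05. Of the 52 members, 47 were called (82.1% of all tested genes were called), of which 36 were higher in PBS (43.1% of all genes) and 11 lower (39% of all genes). The call was accompanied by an absolute log2 fold change above 0.5 in 38 members (56.3% of all genes), and the PBS and UNT libraries did not overlap in 29 (42.5% of all genes). The median log2 fold change was 0.76 over the members and 0.04 over all genes tested.

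Of 15 tested ligands, 13 were called in the disease contrast (86.7%, near the 82.1% of all genes). In PBS 11 were higher (43.1% of all genes were), *Wnt8b* and *Wnt11* were lower, and *Wnt5a* and *Wnt16* were not called, with a median log2 fold change of 2.16. *Wnt7a*, a ligand of epithelial and nervous tissue, went from near absence to abundance. In UNT libraries it had 7 reads in all 12 kidneys together, 7 of which had no read, and its level was at most 0.0681 CPM. In PBS libraries it had 15.5, 40.0 and 76.3 CPM (lowest, median and highest), and 17209 reads in total. The pooled ratio was 2599, with an exact 95% interval of 1261 to 6466 that covers counting error only, and no PBS library came near the UNT range.

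*Wnt9a*, *Wnt2*, *Wnt10b* and *Wnt10a* followed in size. *Wnt9a* had 2.09, 2.52 and 3.07 CPM in UNT and 24.5, 44.4 and 72.2 CPM in PBS, and rose by 4.07 ± 0.15 on the log2 scale (± SE, edgeR adjusted p = 6.6e-23). For *Wnt2*, a ligand of mesenchymal cells in several organs, the levels were 0.393, 0.750 and 1.16 CPM in UNT and 7.04, 12.1 and 17.9 CPM in PBS (log2 fold change 4.08 ± 0.19, adjusted p = 1.19e-20). *Wnt10a* had 0.681, 0.833 and 1.42 CPM in UNT and 8.05, 9.20 and 12.7 CPM in PBS (3.38 ± 0.15). Each of these 3 ligands was higher in every PBS library than in any UNT library. *Wnt10b* rose by 3.41 ± 0.25 on the log2 scale but was a minor species, with 31 reads in all UNT libraries and at most 1.25 CPM in PBS.

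The ligands known from kidney development changed by smaller folds from higher starting levels. *Wnt7b* had 14.6, 19.1 and 28.9 CPM in UNT and 85.9, 132 and 194 CPM in PBS (log2 fold change 2.76 ± 0.14, adjusted p = 2.38e-19). *Wnt4* had 7.33, 11.9 and 15.4 CPM in UNT and 37.8, 61.9 and 92.7 CPM in PBS (2.44 ± 0.13), and its highest PBS library without PBS 2 and PBS 11 had 79.3 CPM. *Wnt9b* had 8.08, 11.3 and 19.7 CPM in UNT and 29.9, 50.1 and 66.3 CPM in PBS (2.02 ± 0.16). For these 3 ligands the groups did not overlap. *Wnt11* instead fell by 0.84 ± 0.15 on the log2 scale (adjusted p = 7.01e-06), from a median of 5.50 CPM in UNT to 3.38 CPM in PBS, with overlapping groups. *Wnt8b* fell by 2.75 ± 0.34, from 0.551, 2.05 and 2.61 CPM to 0, 0.214 and 0.487 CPM. *Wnt5a*, the main ligand of β-catenin-independent signaling, had nearly the same median in UNT (29.0 CPM) and PBS (27.5 CPM), with a log2 fold change of -0.04 ± 0.11 (adjusted p = 0.72), whereas its close relative *Wnt5b* rose by 0.93 ± 0.11. *Wnt7b* shares 324 exonic bases with a gene on the other strand, and since the strand setting of the counting was not stated, it is not known how reads there were counted.

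**Figure D1:**
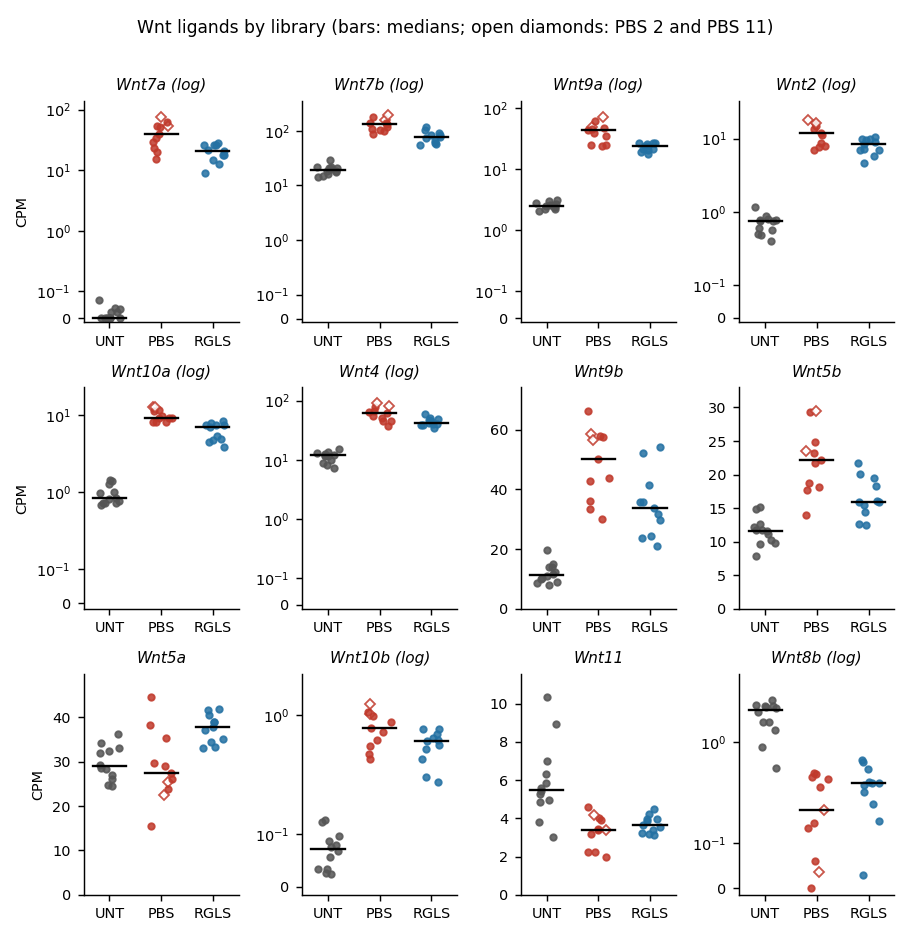
CPM of 12 Wnt ligands in each library, by group (UNT n = 12, PBS n = 11, RGLS n = 11 for RGLS4326), with a black bar at the median and open diamonds for PBS 2 and PBS 11. Panels marked (log) have a log axis that is linear below 0.1 CPM. *Wnt7a* is at most 0.0681 CPM in UNT and at least 9.04 CPM in every *Pkd2*-KO library.

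RGLS4326 was compared with PBS to ask which of these levels differ under treatment. In the treatment contrast 24 of 52 members were called (33.8% of all tested genes), 7 higher (15.3% of all genes) and 17 lower (18.5% of all genes), with a median log2 fold change of -0.07 over the members and 0.00 over all genes. An absolute log2 fold change above 0.5 accompanied the call in 8 members (8.04% of all genes). In none of the 52 did the RGLS4326 and PBS libraries separate completely (0.0639% of all genes). Without PBS 2 and PBS 11, 10 of the 24 calls were lost, those of *Wnt2*, *Wnt9b*, *Fzd2*, *Fzd8*, *Sfrp1*, *Sfrp4*, *Lgr6*, *Rnf43*, *Axin1* and *Tcf7l1*, with adjusted p between 0.0504 and 0.128 and the same signs. This contrast and the disease contrast hold the same PBS libraries, so their values for a gene are not independent and are given side by side.

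Of the 15 tested Wnt ligands 9 were called (60%, against 33.8% of all genes), 8 of them lower (18.5% of all genes were lower). *Wnt9a* had the smallest p, with 17.7, 23.9 and 27.2 CPM in RGLS4326 libraries against 24.5, 44.4 and 72.2 CPM in PBS libraries (log2 fold change -0.88 ± 0.14, adjusted p = 0.000246). Every RGLS4326 library lay below the PBS median, and the spread among the treated mice was narrow, with a coefficient of variation of 13.7% against 36.1% in PBS. *Wnt7b* had 56.0, 78.1 and 117 CPM under RGLS4326 (-0.74 ± 0.14, adjusted p = 0.000934), and *Wnt7a* had 9.04, 21.0 and 28.4 CPM (-1.06 ± 0.21, adjusted p = 0.00168). All 11 treated libraries were again below the PBS median for both genes, although without PBS 2 and PBS 11 the *Wnt7b* median was 116.8 CPM, just under the highest treated library at 117.2 CPM. *Wnt10a* was lower by a log2 fold change of -0.67 ± 0.14, *Wnt2* of -0.58 ± 0.16, *Wnt4* of -0.49 ± 0.13, *Wnt9b* of -0.47 ± 0.16 and *Wnt5b* of -0.41 ± 0.12. The calls of *Wnt2* (adjusted p = 0.0504) and *Wnt9b* (adjusted p = 0.0771) were lost without PBS 2 and PBS 11. *Wnt5a* was the ligand that rose, with 33.2, 37.9 and 42.0 CPM under RGLS4326 and 15.6, 27.5 and 44.5 CPM in PBS (0.38 ± 0.11, adjusted p = 0.0104). Its coefficient of variation was 8.48% in treated and 27.7% in PBS kidneys. *Wnt10b* missed the threshold (-0.48 ± 0.20, adjusted p = 0.0531), and *Wnt2b*, *Wnt6*, *Wnt8b*, *Wnt11* and *Wnt16* were not called either.

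Dividing CPM by the exon length in kilobases allowed the levels of different ligands to be set against each other. Summed over the 19 ligands, the level was 18.1 to 28.01 CPM per kb in UNT (median 21.2), 67.8 to 150 in PBS (median 100.3) and 52.7 to 82.5 in RGLS4326 libraries (median 65.7). Without PBS 2 and PBS 11 the PBS range was 67.8 to 122, with a median of 95.1. The UNT kidney had no single leading ligand. *Wnt5b* was highest in 7 UNT libraries, *Wnt7b* in 3 and *Wnt5a* in 2, and their median shares of the sum were 20.5%, 18.5% and 18.03%, values whose ranges overlap. In the PBS group *Wnt7b* was highest in all 11 libraries, with a median share of 25.9% (21.7% to 29.99%), followed by *Wnt4* at 14.8%, *Wnt9a* at 12.2%, *Wnt7a* at 11.8% and *Wnt9b* at 11.1%, which overlapped one another. The share of *Wnt5a* was 14.1% to 20.8% in UNT and 1.64% to 6.49% in PBS, although its own level was not called as different. Under RGLS4326 *Wnt7b* was highest in 10 libraries and *Wnt4* in 1, and *Wnt5a* took 5.14% to 9.34%.

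**Figure D2:**
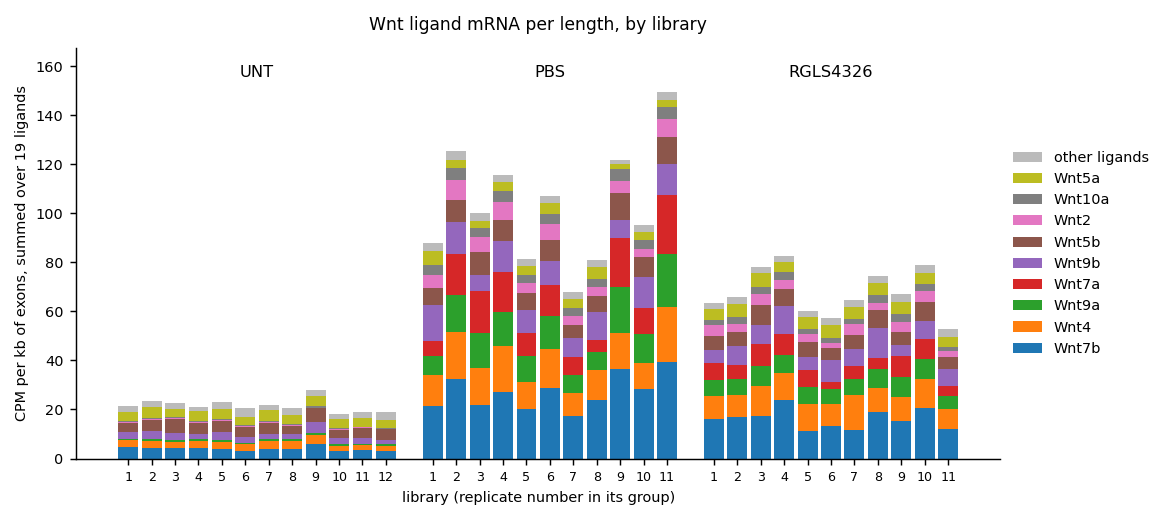
Summed level of the 19 Wnt ligands in each library, in CPM per kb of exons, stacked by ligand, with libraries grouped as UNT, PBS and RGLS4326 and numbered by replicate. UNT kidneys lie between 18.1 and 28.01, PBS kidneys between 67.8 and 150, and RGLS4326 kidneys between 52.7 and 82.5, with *Wnt7b* at the base of each bar.

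Of the 10 Frizzled receptors, 8 were called in the disease contrast (80%, near the 82.1% of all genes), 7 of them higher (43.1% of all genes were). *Fzd9* fell and *Fzd4* and *Fzd5* were not called, with a median log2 fold change of 0.70. *Fzd2* had the largest rise, from 3.79, 5.91 and 8.38 CPM in UNT to 15.3, 21.9 and 25.9 CPM in PBS (1.79 ± 0.10). *Fzd1* had 62.2, 68.3 and 109 CPM in UNT and 139, 203 and 250 CPM in PBS (1.38 ± 0.09), and neither receptor overlapped between these groups. Per length, *Fzd1* was the most abundant Frizzled mRNA in each group by median, at 16.3 CPM per kb in UNT, 48.4 in PBS and 48.0 in RGLS4326. *Fzd9* fell by 1.37 ± 0.19 on the log2 scale, from a median of 0.627 to 0.216 CPM.

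Under RGLS4326, *Fzd3* rose (0.32 ± 0.10, adjusted p = 0.0147) and *Fzd2* (-0.26 ± 0.10) and *Fzd8* (-0.19 ± 0.07) fell, 3 of 10 in all against 33.8% of all genes. Without PBS 2 and PBS 11 the adjusted p of *Fzd2* was 0.128 and that of *Fzd8* 0.0859, and *Fzd2* also lost its call without PBS 9 (adjusted p = 0.0568). *Fzd3*, which works mostly in planar cell polarity and carries one of the 8mers printed above, had 9.497, 11.2 and 15.7 CPM in UNT, 12.1, 18.2 and 20.8 CPM in PBS and 15.8, 20.6 and 27.01 CPM in RGLS4326, and thus rose in both contrasts. For *Fzd1* the treatment log2 fold change was 0.00 ± 0.09 (adjusted p = 0.992). The coreceptors moved in opposite directions in disease, *Lrp5* by 0.44 ± 0.10 and *Lrp6* by -0.39 ± 0.10. With the percentage of reads outside genes as a covariate neither was called (*Lrp5* 0.30, adjusted p = 0.0765, and *Lrp6* -0.24, adjusted p = 0.117). This percentage was 9.84% to 11.3% in UNT and 5.18% to 9.0% in PBS libraries, without overlap. In the disease contrast it therefore cannot be told apart from the difference between the groups. *Lrp6* had 199.96, 227 and 312 CPM in UNT, 99.5, 180 and 228 CPM in PBS and 186, 228 and 247 CPM under RGLS4326, a rise of 0.30 ± 0.10 over PBS (adjusted p = 0.0202), with overlapping groups throughout. *Lrp5* had a treatment value of -0.04 ± 0.10 (adjusted p = 0.808).

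**Figure D3:**
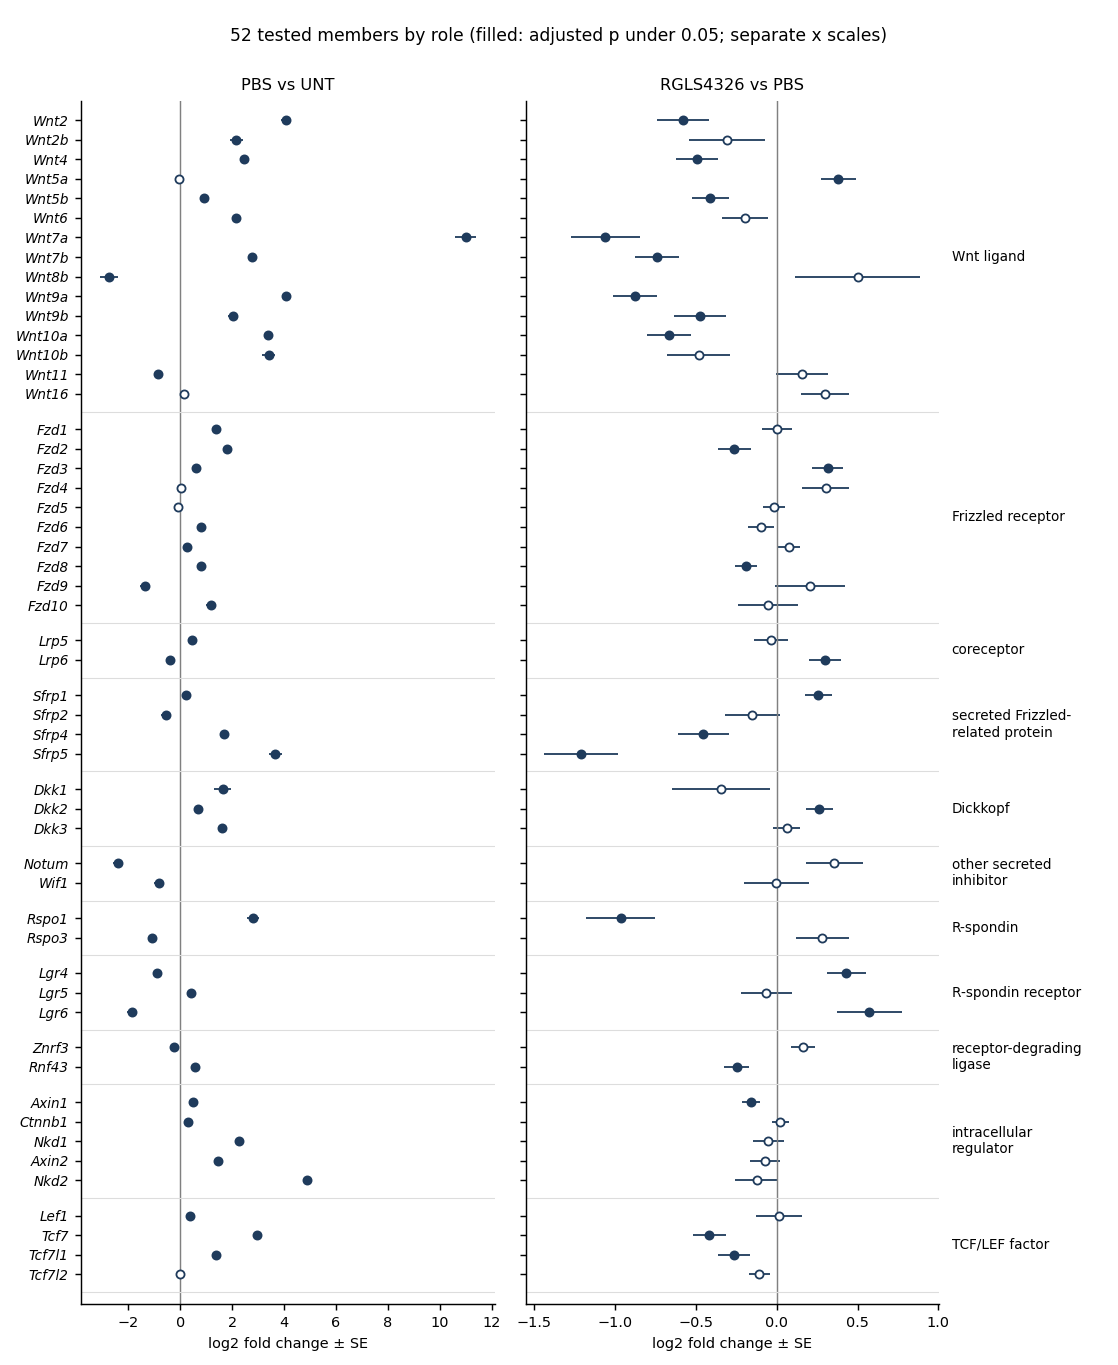
Log2 fold change (x axis, ± SE) of the 52 tested members, grouped by role, in the disease contrast (left) and the treatment contrast (right), on separate x scales. Filled points passed an adjusted p under 0.05: 47 on the left and 24 on the right. Disease values reach from -2.75 for *Wnt8b* to 4.07 and more for *Wnt9a*, *Wnt2*, *Nkd2* and *Wnt7a*, and treatment values from -1.21 for *Sfrp5* to 0.57 for *Lgr6*. The *Wnt7a* point on the left rests on 7 UNT reads and its fitted size depends on the prior count.

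The secreted inhibitors did not move as a block. Among the Frizzled-related proteins, which bind Wnt ligands through a Frizzled-like domain, *Sfrp5*, *Sfrp4* and *Sfrp1* rose in disease and *Sfrp2* fell. *Sfrp5* had 0.206, 0.393 and 1.01 CPM in UNT, 2.85, 5.89 and 10.9 CPM in PBS and 1.25, 2.23 and 4.69 CPM under RGLS4326. Its log2 fold change was 3.67 ± 0.25 in disease (adjusted p = 1.53e-15) and -1.21 ± 0.23 under treatment (adjusted p = 0.00119), the largest decrease among the 24 called members. The treated libraries overlapped PBS but not UNT. *Sfrp1*, the most abundant secreted inhibitor of the set per length in each group by median, had 185, 225 and 293 CPM in UNT, 218, 265 and 339 CPM in PBS and 251, 327 and 372 CPM under RGLS4326. It was higher in both contrasts (0.22 ± 0.08 and 0.26 ± 0.08), but the treatment call was lost without PBS 2 and PBS 11 (adjusted p = 0.0575). The disease call was lost with the percentage of reads outside genes, which separates UNT from PBS, as a covariate (adjusted p = 0.126). *Sfrp4* rose by 1.68 ± 0.16 and then was lower under RGLS4326 (-0.45 ± 0.16, adjusted p = 0.026, and 0.0823 without PBS 2 and PBS 11). *Sfrp2* fell by 0.57 ± 0.17 in disease (adjusted p = 0.00219), with 22.6 CPM in PBS 2 and 5.99 to 8.90 CPM in the PBS libraries other than PBS 2 and PBS 11. Without these 2 libraries the log2 fold change was -0.79, and in library set 1 alone, which holds PBS 2, it was -0.05 and not called (adjusted p = 0.894).

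All 3 tested Dickkopf genes rose in the cystic kidney, against 43.1% of all genes. *Dkk3*, a divergent family member, had 23.8, 29.2 and 34.2 CPM in UNT and 69.4, 87.4 and 106 CPM in PBS (1.59 ± 0.08), and 70.5, 88.8 and 131 CPM under RGLS4326 (treatment value 0.06 ± 0.08, adjusted p = 0.574). *Dkk2*, an *Lrp5* and *Lrp6* antagonist, had 22.9, 24.8 and 32.4 CPM in UNT, 33.3, 42.5 and 52.7 CPM in PBS and 40.8, 50.5 and 64.8 CPM in RGLS4326 libraries. Both contrasts called it higher (0.70 ± 0.08 and 0.26 ± 0.08, the latter with adjusted p = 0.016). *Dkk1*, the best known antagonist of the family, was scarce, at 0.0267 to 0.449 CPM in UNT and 0.146 to 1.02 CPM in PBS (1.64 ± 0.32). *Notum*, the carboxylesterase that removes the lipid from Wnt ligands, went the other way. It had 16.1, 19.1 and 25.1 CPM in UNT and 1.64, 3.91 and 6.83 CPM in PBS, so that no PBS library reached the lowest UNT value, and fell by 2.41 ± 0.18 on the log2 scale (adjusted p = 7.05e-15). Under RGLS4326 it had 3.07, 4.62 and 7.58 CPM (0.36 ± 0.18, adjusted p = 0.11). *Wif1*, the Wnt inhibitory factor, fell by 0.83 ± 0.19 in disease and had a treatment value of 0.00 ± 0.20 (adjusted p = 0.991).

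The R-spondin axis split between its members. *Rspo1* rose from 0.206, 0.487 and 0.941 CPM in UNT to 2.40, 3.75 and 4.98 CPM in PBS (2.81 ± 0.23, adjusted p = 1.15e-13), without overlap, and had 0.909, 1.85 and 3.32 CPM under RGLS4326 (-0.97 ± 0.21, adjusted p = 0.003). *Rspo3* fell from 1.44, 2.54 and 3.84 CPM in UNT to 0.769, 1.19 and 1.53 CPM in PBS (-1.10 ± 0.16) and was not called under treatment (0.28 ± 0.16, adjusted p = 0.173). Both were scarce, at no more than 4.98 and 3.84 CPM in any library. The receptor *Lgr4* was far more abundant, with 179, 241 and 294 CPM in UNT, 79.6, 118 and 185 CPM in PBS and 141, 169 and 251 CPM in RGLS4326 libraries. It fell in disease (-0.91 ± 0.12) and rose under treatment (0.43 ± 0.12, adjusted p = 0.00975). *Lgr6* had 0.909, 1.56 and 2.15 CPM in UNT, 0.198, 0.366 and 0.878 CPM in PBS and 0.346, 0.643 and 0.818 CPM under RGLS4326, with values of -1.87 ± 0.19 and 0.57 ± 0.20 (adjusted p = 0.0294 for treatment). The treatment call of *Lgr6* was lost without PBS 2 and PBS 11 (adjusted p = 0.0815) and without PBS 9 (adjusted p = 0.0524). *Lgr5*, a stem cell marker in other epithelia, stayed between 0.454 and 2.91 CPM in all libraries. It was called higher in disease (0.41 ± 0.16, adjusted p = 0.0177), a call lost without PBS 2 and PBS 11 (0.28, adjusted p = 0.103). Of the ligases, *Rnf43* rose in disease (0.57 ± 0.08) and fell under treatment (-0.25 ± 0.08, adjusted p = 0.0182, and 0.076 without PBS 2 and PBS 11), and *Znrf3* fell in disease by 0.26 ± 0.08 and had a treatment value of 0.16 ± 0.08 (adjusted p = 0.0974).

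**Figure D4:**
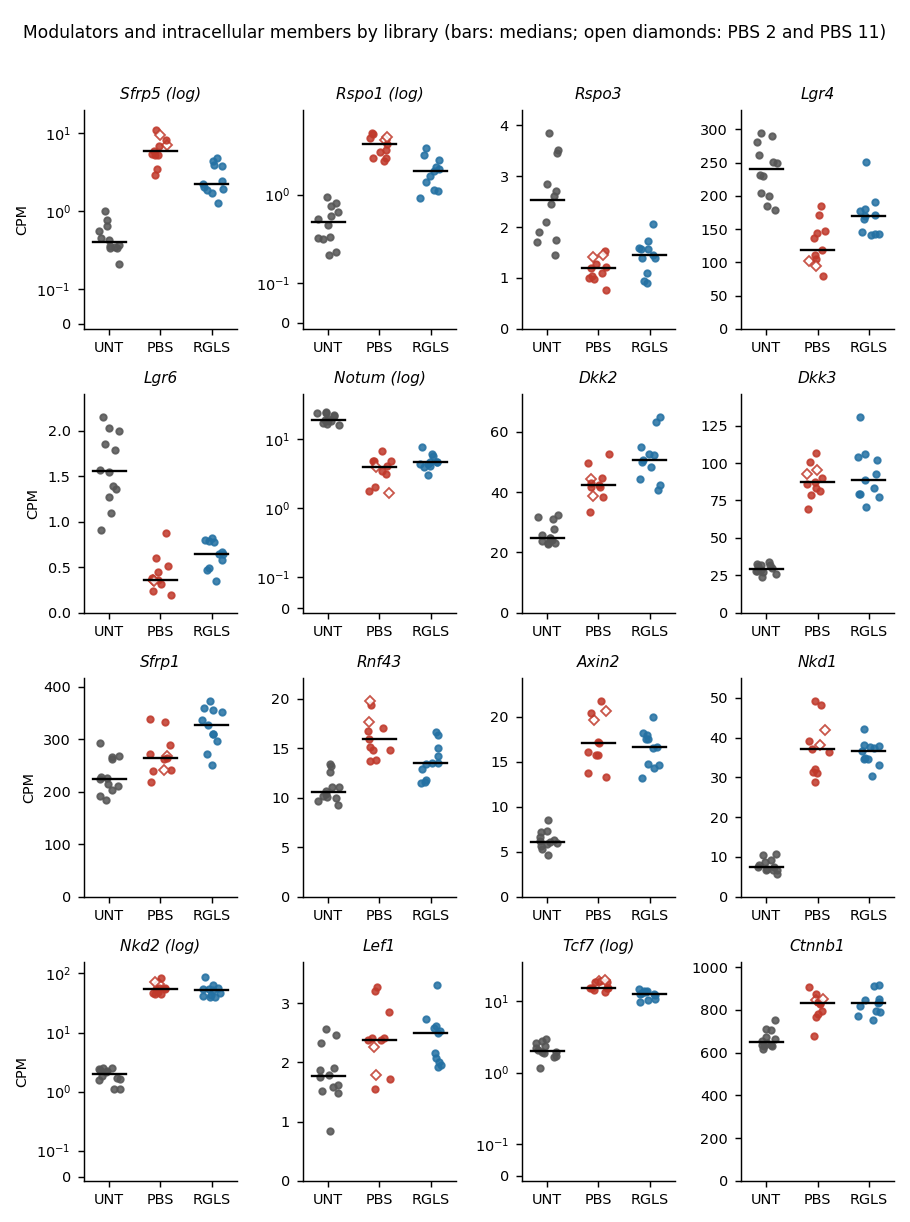
CPM of 16 modulators and intracellular members in each library, by group, with a black bar at the median and open diamonds for PBS 2 and PBS 11. Panels marked (log) have a log axis that is linear below 0.1 CPM. *Axin2*, *Nkd1* and *Nkd2* lie higher in both *Pkd2*-KO groups than in UNT without overlap, *Notum* lower, and the PBS and RGLS4326 medians of *Axin2* are 17.1 and 16.6 CPM.

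Inside the cell, all 5 intracellular regulators rose in the cystic kidney, where 82.1% of all genes were called and 43.1% were higher. *Axin2*, the negative feedback scaffold, had 4.64, 6.10 and 8.54 CPM in UNT and 13.3, 17.1 and 21.7 CPM in PBS (1.46 ± 0.09, adjusted p = 1.27e-16). *Nkd1* and *Nkd2*, which encode Naked cuticle homologs that bind Dishevelled, had medians of 7.49 and 1.98 CPM in UNT and 37.0 and 55.4 CPM in PBS, with log2 fold changes of 2.25 ± 0.10 and 4.90 ± 0.16. None of these 3 genes overlapped between PBS and UNT. *Ctnnb1*, whose protein is controlled mainly by its stability, was the most abundant member per length in each group and rose by 0.30 ± 0.05, from 615, 651 and 751 CPM to 677, 832 and 909 CPM. Its call was lost in library set 3 alone (0.19, adjusted p = 0.215). It was also lost with the percentage of reads lacking a unique alignment as a covariate (0.08, adjusted p = 0.61). *Axin1* rose by 0.50 ± 0.06.

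Under RGLS4326 these levels were close to those in PBS. *Axin2* had 13.1, 16.6 and 20.0 CPM in treated kidneys (-0.08 ± 0.09, adjusted p = 0.532), *Nkd1* had 30.4, 36.7 and 42.2 CPM (-0.05 ± 0.10, adjusted p = 0.678) and *Nkd2* had 39.3, 53.5 and 87.4 CPM (-0.12 ± 0.13, adjusted p = 0.468). For *Ctnnb1* the value was 0.02 ± 0.05 (adjusted p = 0.763). Only *Axin1* among the 5 was called, at -0.16 ± 0.06 (adjusted p = 0.0293, and 0.111 without PBS 2 and PBS 11). A test that missed the threshold does not show equal levels, and the SE of each value gives the size of difference that could have gone unseen. Of the 7 readout genes named in the background, 5 rose in disease (*Axin2*, *Nkd1*, *Rnf43*, *Lgr5* and *Lef1*) and *Notum* and *Znrf3* fell. Of all genes 82.1% were called, 43.1% higher and 39% lower. *Rnf43* was the 1 of the 7 called in the treatment contrast (33.8% of all genes were), a call lost without PBS 2 and PBS 11. With the percentage of reads outside genes as a covariate, 3 of the 7 disease calls were lost, those of *Lef1* (0.36, adjusted p = 0.136), *Lgr5* (0.44, adjusted p = 0.0913) and *Znrf3* (-0.03, adjusted p = 0.803), while over all genes 10975 rather than 12841 were called. As given above, this percentage did not overlap between UNT and PBS libraries, so the covariate cannot be told apart from the group difference. In the library sets alone, described below, *Lef1* (0.65, 0.29 and 0.21) and *Lgr5* (0.51, 0.28 and 0.42) were not called in any, and *Znrf3* was not called in sets 1 and 2 (-0.18 and -0.17). With the percentage of reads lacking a unique alignment as a covariate, *Rnf43* also lost its disease call (0.285, adjusted p = 0.208), beside *Lef1*, *Lgr5* and *Znrf3*.

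Among the TCF/LEF factors, *Tcf7* had 1.18, 2.01 and 2.96 CPM in UNT, 13.3, 15.4 and 19.6 CPM in PBS and 9.79, 12.6 and 14.6 CPM under RGLS4326. It rose in disease (2.96 ± 0.11, adjusted p = 4.1e-23), without overlap, and fell under treatment (-0.42 ± 0.10, adjusted p = 0.00506). *Tcf7* is also expressed by T cells, and T cell markers summed to 3.46 to 6.01 CPM in UNT, 10.4 to 33.2 CPM in PBS and 7.51 to 15.6 CPM under RGLS4326; their part in the *Tcf7* values was not tested. *Tcf7l1* rose in disease (1.37 ± 0.10) and fell under treatment (-0.26 ± 0.10, adjusted p = 0.0366, and 0.0926 without PBS 2 and PBS 11). *Tcf7l2* was called in neither contrast, at 0.01 ± 0.06 and -0.11 ± 0.07. *Lef1* stayed between 0.838 and 3.30 CPM, with a disease value of 0.39 ± 0.14 (adjusted p = 0.0119) and a treatment value of 0.01 ± 0.14. The 7-base TCF/LEF motifs ATCAAAG and TTCAAAG, which can share up to 2 bases when on opposite strands, were searched on both strands in RefSeq promoters on GRCm38.p6, from 250 bases before to 50 after a start. They stood in 3 of 49 promoters of members (6.12%) and in 8.65% of 32851 promoters in all. The 3 stretches that hold one are printed with the motif or its complement in capitals, at *Wnt5b* (chr6:119449440-119449468, minus strand), *Wnt11* (chr7:98835050-98835078, plus strand) and *Dkk1* (chr19:30549596-30549624, minus strand).
Wnt5b: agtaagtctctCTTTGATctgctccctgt
Wnt11: gacgtgggcggATCAAAGcgacggtccgc
Dkk1: tcctcccaaagCTTTGAAatcccatcccg

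Treated kidneys were also set against UNT kidneys, to describe how far from the normal level the members were under RGLS4326. Of 52 members, 48 were called (77.7% of all tested genes), 39 higher (40.8% of all genes) and 9 lower (36.9% of all genes), 36 of the calls with an absolute log2 fold change above 0.5 (51% of all genes), and 25 did not overlap between the groups (36.7% of all genes). All 15 tested ligands were called, 13 of them higher. *Wnt7a* had 6393 reads in RGLS4326 libraries against 7 in UNT, a pooled ratio of 1245 (exact 95% interval 604 to 3098, counting error only). *Wnt9a* was higher by 3.19 ± 0.15, *Wnt7b* by 2.01 ± 0.14 and *Sfrp5* by 2.45 ± 0.26, each without overlap. *Wnt5a*, which did not differ detectably between PBS and UNT, was higher than UNT under RGLS4326 (0.34 ± 0.11, adjusted p = 0.00433), as was *Wnt16* (0.46 ± 0.15). *Lrp6* (-0.09 ± 0.10, adjusted p = 0.364) and *Znrf3* (-0.10 ± 0.08, adjusted p = 0.249), both lower in PBS than in UNT, were not called here, nor were *Fzd5* and *Tcf7l2*.

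The treatment calls depended on which libraries and which library property entered. The sample numbers in the names of the tables restart in 3 library sets, each holding 3 or 4 libraries of each *Pkd2*-KO group. All 24 called members had the sign of the pooled value in each of the 3 sets. They were chosen by their pooled call on these same libraries, which favors such agreement, so it is given as a description only. *Wnt9a* had log2 fold changes of -0.78, -0.79 and -1.03, *Wnt7b* of -0.43, -0.93 and -0.93, *Sfrp5* of -0.95, -1.44 and -1.47 and *Wnt5a* of 0.28, 0.38 and 0.50. *Lgr4* and *Lgr6* were less even, at 0.75, 0.13 and 0.50 and at 1.31, 0.25 and 0.39. Tested within a set by edgeR, 0, 11 and 0 of the 52 members were called, against 54, 4065 and 0 of all 15644 genes, and 19, 19 and 14 members had an unadjusted p under 0.05. No gene was called for a difference of the treatment effect between sets (0 of 15644, 1126 at an unadjusted p under 0.05, by edgeR). Without PBS 2 and PBS 11, 14 of the 24 calls remained. *Wnt9a* (-0.73, adjusted p = 0.00192), *Wnt7b* (-0.63, adjusted p = 0.00873), *Sfrp5* (-1.12, adjusted p = 0.00873) and *Wnt7a* (-0.87, adjusted p = 0.0144) were among them, *Wnt4* remained narrowly (-0.36, adjusted p = 0.0424), and *Wnt2* did not (-0.44, adjusted p = 0.0504). Over all genes the same omission took the number of calls from 5280 to 2836. Library PBS 9, the lowest PBS library for 21 of the 52 members, changed less: 22 of the 24 were called without it. The share of reads in no gene was 5.18% to 9.0% in PBS and 4.94% to 12.0% in RGLS4326 libraries, and with this share as a covariate 3 members were called, *Wnt9a* (-0.75, adjusted p = 0.0178), *Sfrp5* (-0.99, adjusted p = 0.0389) and *Wnt7b* (-0.47, adjusted p = 0.049), among 89 genes in all.

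**Figure D5:**
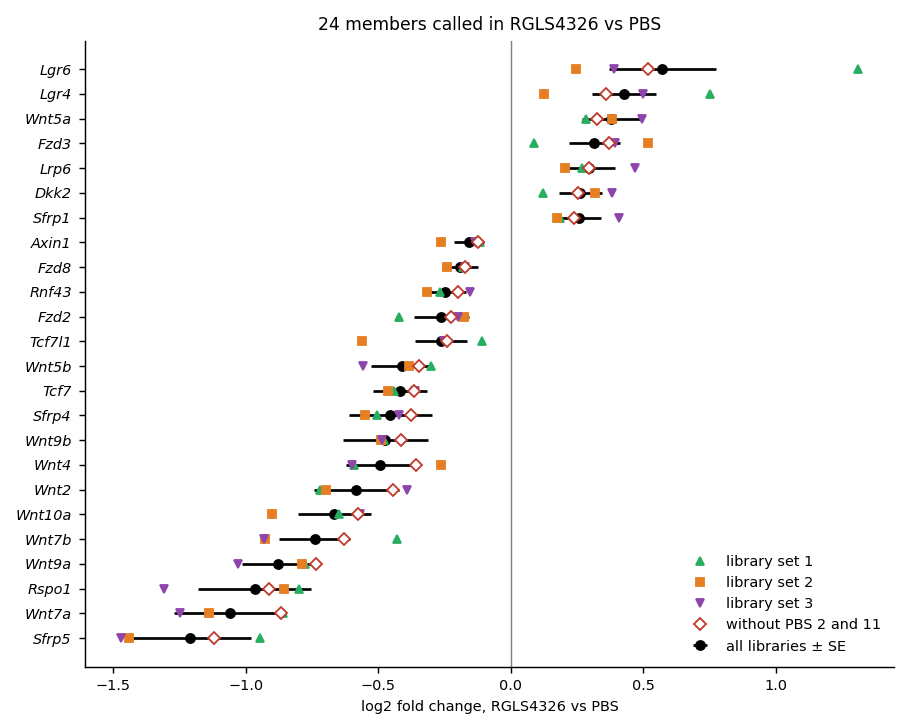
Log2 fold change of RGLS4326 vs PBS (x axis) for the 24 members called in that contrast: all libraries ± SE (black), each library set alone (triangles and squares) and without PBS 2 and PBS 11 (open diamonds). Every point of a gene lies on the same side of 0, which the choice of genes by the pooled call favors. The sets differ most for *Lgr6*, at 1.31, 0.25 and 0.39.

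Other genes of the pathway, from a list of 88 of which 83 were tested, were counted the same way. In the disease contrast 66 were called (79.5%, against 82.1% of all genes), 53 higher (43.1% of all genes) and 13 lower (39% of all genes), with a median log2 fold change of 0.42. In the treatment contrast 30 were called (36.1%, against 33.8% of all genes), 15 in each direction (15.3% of all genes higher and 18.5% lower), with a median of 0.04, and 15 were called without PBS 2 and PBS 11. The 3 with the smallest p in disease were *Cd44*, a cell surface receptor and common Wnt target (median 3.19 CPM in UNT and 57.3 CPM in PBS, log2 fold change 4.08 ± 0.13), *Fjx1*, a Four-jointed homolog (2.90 ± 0.11), and *Ptk7*, a Wnt coreceptor of planar polarity (2.03 ± 0.08). In the treatment contrast they were *Tnks2*, a tankyrase that marks Axin for degradation (0.32 ± 0.06, adjusted p = 0.00131), *Plaur*, the urokinase receptor (-0.53 ± 0.11, adjusted p = 0.00192), and *Daam2*, a formin that binds Dishevelled (0.41 ± 0.09, adjusted p = 0.00354). By list, 11 of 13 planar polarity genes were called in disease (84.6%), all higher, and 11 of 16 common target genes (68.8%), 10 higher and 1 lower. Under RGLS4326, 7 common targets were called (43.8%), 1 higher and 6 lower, and 5 planar polarity genes (38.5%), 4 higher and 1 lower, beside 15.3% of all genes higher and 18.5% lower. The ligand secretion genes *Porcn* and *Wls* were both called in disease, 1 in each direction, and neither under treatment.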

How the data were processed

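Paired-end reads of stranded mRNA libraries were trimmed and aligned with STAR to GRCm38 (mm10) by the authors, who counted unique alignments per gene with HTSeq (version 0.6.1 in the submitters' processing notes). The deposited tables, one for each mouse, hold unnormalized counts by gene symbol. The annotation and strand setting were not given in the sources used here.

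Counts were scaled by TMM, filtered with filterByExpr (15644 genes kept) and tested with edgeR 4.0.16 (quasi-likelihood, R 4.3.3), with 3 groups and no covariate; calls used the two-sided Benjamini-Hochberg adjusted p under 0.05. DESeq2 1.42.0 was an alternative. SE is the fold change divided by the root of the F statistic. Exon lengths (union of exons), 3′UTRs and overlaps came from GENCODE M21 on GRCm38, promoters and miR-17 from RefSeq. Exons of 3 members (*Wnt7b*, *Ctnnb1* and *Tcf7l1*) overlapped another counted gene on the other strand, so their values are uncertain to that extent.

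Members and lists were chosen with earlier results of these data known. Members were described in full if among the 15 smallest p in the treatment contrast, among the 10 largest called changes in each direction in disease with an absolute log2 fold change above 0.5 (9 members fell by that much), or one of 8 readout or core genes; others are named to complete their role, after their values were seen. Python 3.11.15 with pandas 2.3.3 and matplotlib 3.10.9 made the tables and figures. Alternatives covered scaling, filters, covariates, library sets, left-out libraries and a replicate block.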

Additional observations from a re-analysis of the deposited data

How the results depend on the processing

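For the 31 members described in full, other scaling factors (DESeq2 size factors or upper quartile), DESeq2's Wald test, no filter, a filter of 1 CPM in 11 libraries, the library set as a covariate and a fit of the compared groups alone changed no call in the disease or treatment contrast where the gene was tested; against UNT, *Lgr5* under RGLS4326 lost its call in 5 of these 7 settings. Scaling moved the median gene by under 0.1 on the log2 scale. The number of members called in the treatment contrast (24) became 3 with the percentage of reads outside genes as a covariate, 0, 11 and 0 in library sets 1, 2 and 3 alone and 14 without PBS 2 and PBS 11, and for the other pathway genes (30) it became 1, then 0, 23 and 0 in the 3 sets, and 15. The smaller numbers of mice in a set and of PBS libraries are part of these settings; the cause was otherwise not tested. The percentage of reads that lacked a unique alignment was 22.8% to 25.7% in UNT and 14.8% to 19.4% in the other groups, so it cannot be told apart from the genotype. With it as a covariate, 32 members rather than 47 were called in disease and 26 rather than 48 in RGLS4326 vs UNT (of all genes, 7338 rather than 12841 and 7316 rather than 12157), and of the other pathway genes 34 rather than 66 in disease and 42 rather than 67 in RGLS4326 vs UNT. Under it *Lef1* (-0.19 in disease, -0.18 for RGLS4326 vs UNT), *Lgr5* (-0.00505 and -0.0811) and *Wnt5a* (-0.29 for RGLS4326 vs UNT) changed sign, none past the threshold, and *Wnt5a* was called lower in disease (-0.68, adjusted p = 0.0174). Among the members described in full, *Lgr4*, *Wnt5b*, *Rspo3*, *Sfrp2*, *Rnf43*, *Znrf3* and *Ctnnb1* lost their disease calls under it without a change of sign.

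With the replicate number as a block, 47, 24 and 48 members were called in the disease contrast, the treatment contrast and RGLS4326 vs UNT, the treatment calls as 8 higher and 16 lower rather than 7 and 17. The 31 members described in full kept their treatment result, so the treatment calls that changed were among the other tested members. The deviations of same-numbered samples were compared: their correlation was over 0.1 in 1 of 11 pairs for PBS and UNT, 5 of 11 for RGLS4326 and PBS and 3 of 11 for RGLS4326 and UNT, so not every pair passed 0.1 in any comparison and the numbers were not treated as pairs. Depth limits the 7 untested members and the ligands below 1 CPM.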
